A study of Homo sapiens with 3 samples.

Results

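The transcriptome of control cells of the human line LvM3b, which comes from an adenocarcinoma of the colon, was described from a single Illumina bead array. This array was 1 of the 3 in the series. The other arrays held LvM3b cells overexpressing miR-483 or miR-551a and were not compared with it here. In the published work that used the line, LvM3b was obtained from the colon cancer line LS174T by selection in mice for growth in the liver. The cells were grown in DMEM with serum on a plate and taken before confluence, so no liver or stromal cells were present by design. The label of the control array gives no vector or transfection for these cells. The line has been passed through animals and is represented by 1 culture, so the values below carry no replicate error and no test was made.

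Colon epithelium is renewed from stem cells at the crypt base, where WNT signalling keeps cells dividing, and cells mature as they move up into absorptive colonocytes, mucus-secreting goblet cells and rare hormone-secreting cells. Colon cancers keep part of this programme. The factor CDX2 sets intestinal identity, and the intestinal cadherin CDH17, the surface antigen GPA33 and the keratins KRT8 and KRT20 are used as markers of the lineage.

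Each probe has an intensity in scanner units and a detection score, the share of the array's negative controls that it exceeds as far as the values show, and a score above 0.99 was counted as detected. A gene was given the value of its brightest probe, and its percentile is the share of all genes with a lower intensity. Of 24989 genes, 10524 were detected, which is 42.1%, and of 17647 protein-coding genes 9327 were detected, which is 52.9%. The second share is the nearer background for the gene lists, which hold almost only protein-coding genes. Among 36157 probes with a symbol, 13347 were detected (36.9%). The median intensity of detected genes was 338.1, the lowest detected intensity was 110.3, and 2163 genes lay above 1000. Probes bind with different strength, so intensities show whether and how clearly a gene was seen, and a higher value at 1 gene than at another is no measure of more RNA.

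**Figure D1:**
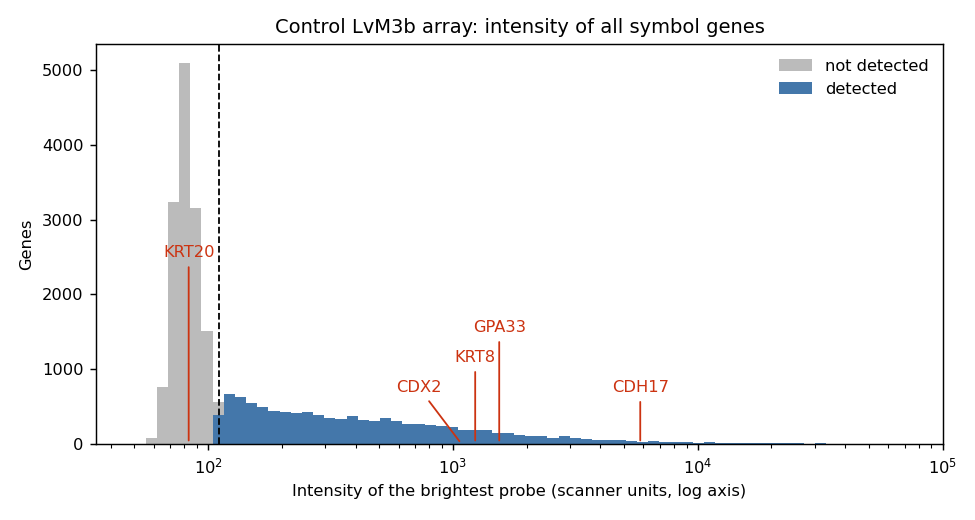
Number of genes (y axis) by intensity of the brightest probe (x axis, scanner units, log scale) in the control array, with undetected genes in grey and detected genes in blue. The dashed line is the lowest detected intensity, 110.3; KRT20 lies inside the undetected peak and CDX2, KRT8, GPA33 and CDH17 lie between 1085.0 and 5824.0.

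The markers of the colon lineage were present except for 1. CDH17 had an intensity of 5824.0 (percentile 98.7), GPA33 of 1545.7 (94.4), KRT8 of 1233.1 (92.8) and CDX2 of 1085.0 (92.0). KRT20, the keratin of mature colon cells, was not detected at either of its probes, the brighter of which read 83.3 with a score of 0.833. Detection of 4 of these 5 markers goes with the label of a colon line.

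To set the sequence context of marker and lineage genes beside their signal, the 250 bases before the annotated gene start are shown for 6 of them, read from RefSeq promoters on GRCh38.p14. Capitals mark CpG dinucleotides and the TATA motif TATAAA. CDX2 (chr13:27969316-27969565, minus strand) and MYB (chr6:135181058-135181307, plus strand) are transcription factors of the intestinal crypt. GPA33 (chr1:167090378-167090627, minus strand), KRT20 (chr17:40885243-40885492, minus strand), CEACAM6 (chr19:41755280-41755529, plus strand) and REG4 (chr1:119811461-119811710, minus strand) are genes of differentiated or neoplastic gut epithelium.
CDX2: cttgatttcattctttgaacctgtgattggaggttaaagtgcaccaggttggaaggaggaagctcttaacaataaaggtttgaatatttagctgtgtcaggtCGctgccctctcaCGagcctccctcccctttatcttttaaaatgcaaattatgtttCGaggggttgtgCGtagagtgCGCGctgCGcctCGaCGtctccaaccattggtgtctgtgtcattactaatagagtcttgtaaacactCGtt
MYB: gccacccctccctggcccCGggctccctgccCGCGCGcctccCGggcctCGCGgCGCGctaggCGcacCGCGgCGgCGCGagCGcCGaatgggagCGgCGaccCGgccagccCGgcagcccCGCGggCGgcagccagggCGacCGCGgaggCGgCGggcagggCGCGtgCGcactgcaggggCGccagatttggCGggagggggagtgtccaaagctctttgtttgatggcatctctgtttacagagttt
GPA33: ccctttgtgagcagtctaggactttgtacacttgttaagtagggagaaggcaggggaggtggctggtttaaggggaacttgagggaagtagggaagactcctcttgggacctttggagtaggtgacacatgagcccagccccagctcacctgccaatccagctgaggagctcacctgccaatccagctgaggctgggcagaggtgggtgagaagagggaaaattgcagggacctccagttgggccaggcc
KRT20: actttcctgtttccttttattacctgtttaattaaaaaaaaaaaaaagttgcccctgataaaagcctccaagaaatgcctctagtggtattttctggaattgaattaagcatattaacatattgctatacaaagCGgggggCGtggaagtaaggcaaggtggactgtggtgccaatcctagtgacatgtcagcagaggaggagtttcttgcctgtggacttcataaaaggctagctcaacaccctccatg
CEACAM6: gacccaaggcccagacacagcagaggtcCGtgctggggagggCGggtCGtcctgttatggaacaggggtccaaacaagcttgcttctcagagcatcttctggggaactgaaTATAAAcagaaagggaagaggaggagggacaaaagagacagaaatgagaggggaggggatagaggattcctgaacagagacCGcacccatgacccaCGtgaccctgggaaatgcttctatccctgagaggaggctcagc
REG4: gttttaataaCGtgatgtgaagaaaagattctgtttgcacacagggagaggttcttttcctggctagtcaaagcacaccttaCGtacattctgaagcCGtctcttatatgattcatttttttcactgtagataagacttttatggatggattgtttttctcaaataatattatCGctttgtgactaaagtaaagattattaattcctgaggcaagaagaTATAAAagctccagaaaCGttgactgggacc
MYB has 34 CpG sites in this window and CDX2 has 10. GPA33 has 0 and the undetected KRT20 has 2, so a promoter poor in CpG stood both before a detected and before an undetected gene. TATAAA begins 31 bases before the start of REG4 and 139 bases before that of CEACAM6. It was not found in the other 4 windows on the sense strand, and 7.17% of the 27305 windows of this length in the RefSeq table hold it on that strand.

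Lineage genes were detected in 106 of 253 cases (41.9%), which is below the share over protein-coding genes, and the individual lists differed widely. Of 34 transcription factors of gut endoderm, 21 were detected. MYB, a factor of crypt progenitors, read 3678.3 and SOX9, which marks crypt base cells, 2634.5. The pioneer factor FOXA1 read 2114.9, CDX1 1729.4, PITX1 1400.7 and KLF5, a factor of dividing crypt cells, 1263.4. The epithelial factors EHF (986.6) and ELF3 (352.4) were detected as well. PPARG, a nuclear receptor of colonocytes, read 2763.9 and 629.0 at its detected probes and 92.7 and 68.8 at the others. FOXA2 was detected at 1 of 3 probes (1139.1). HNF4G read 274.9. The related factor HNF4A (highest probe 86.2) was not detected, nor were GATA4, GATA5, ISX and PDX1, and GATA6 (100.9) was just below the limit. The lung factor NKX2-1 and the foregut factor SOX2 were also below detection.

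Among the lineage lists, that of intestinal stem cells and WNT feedback had the largest share detected. Of its 26 genes, 22 were detected (84.6%), against 52.9% of protein-coding genes, with a median intensity of 669.7 over all 26. It also holds genes of general growth such as CCND1 and MYC, and cell cycle genes were detected at a similar 85.7%. The lists were chosen with earlier results of these data known, so their order does not rank the cell compartments. The surface glycoprotein CD44, a WNT target, read 10807.6, 742.4 and 228.7 at its 3 probes. The cell cycle gene CCND1 read 5802.6, MYC 5043.3 and 3243.6, the stem cell factor ASCL2 4119.5, and AXIN2, a feedback inhibitor that reports WNT signalling, 3385.4. OLFM4, a secreted stem cell marker, read 1489.9 at 1 probe and 86.6 at the other. LGR5, the R-spondin receptor that marks stem cells, was detected at 212.0, SMOC2 at 911.3 and RNF43, which removes WNT receptors, at 309.2. TCF7, MSI1, NOTUM and TNFRSF19 were not detected, TNFRSF19 just below the limit (109.8). This list therefore contained detected readouts at several levels of the WNT pathway, from receptors to nuclear targets.

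Goblet cell products were detected in 14 of 25 cases (56.0%), near the 52.9% of protein-coding genes. The trefoil peptide TFF3 read 3366.2 (percentile 97.6), the secreted lectin REG4 2264.2 (96.2) and SPINK4 917.9, whereas the main gel-forming mucin MUC2 read 182.4 (69.4). The disulfide isomerase AGR2, needed to fold mucins, read 280.2 and the sialyltransferase ST6GALNAC1 529.0. FCGBP, which binds mucin, was detected at 1 of 3 probes (424.3). The factors that commit cells to this fate, ATOH1 (71.1) and SPDEF (102.7), were not detected, nor were CLCA1, ZG16 and MUC5B. The membrane mucins MUC13 (688.5) and MUC17 (250.5) were seen, MUC4 and MUC12 were not, and MUC1 (105.9) was just below the limit. Gastric products were dim: 6 of 19 genes were detected, led by TFF1 (405.8), MUC5AC (215.7) and TFF2 (162.5), and the pump subunits ATP4A and ATP4B, the enzyme precursor PGC and GKN1 were undetected.

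Genes of absorptive cells were detected in 13 of 36 cases. The lectin LGALS4 read 4967.8, KRT19 1888.9, the sodium-glucose transporter SLC5A1 801.7, the peptidase DPP4 651.5 and the microvillus protein VIL1 359.6. Several products of mature absorptive cells were undetected, among them the fatty acid carriers FABP1 and FABP2 (107.8, just below the limit). The chloride exchanger SLC26A3, the water channel AQP8, CA1, CA4, GUCA2A, GUCA2B and the brush border enzymes ALPI, SI and ANPEP were undetected too. Members of the same kinds passed at low intensity, with the bile acid carrier FABP6 at 146.3 and 130.9, the brush border protease MEP1A at 134.7 and CA2 at 120.8 at 1 of 2 probes. Of 16 Paneth cell and antimicrobial genes, 7 were detected (43.75%, against 52.9% of protein-coding genes). LYZ read 476.6 and 307.7 and PIGR, which carries antibodies across the epithelium, 410.7. PLA2G2A read 329.2 and the defensins DEFA6 296.7 and DEFA5 168.6. Of 28 enteroendocrine and tuft cell genes only KIT, also a receptor, and PAX6 (117.0 at 1 of 2 probes, close to the limit) were detected, while CHGA, CHGB, NEUROD1, POU2F3 and TRPM5 were not.

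**Figure D2:**
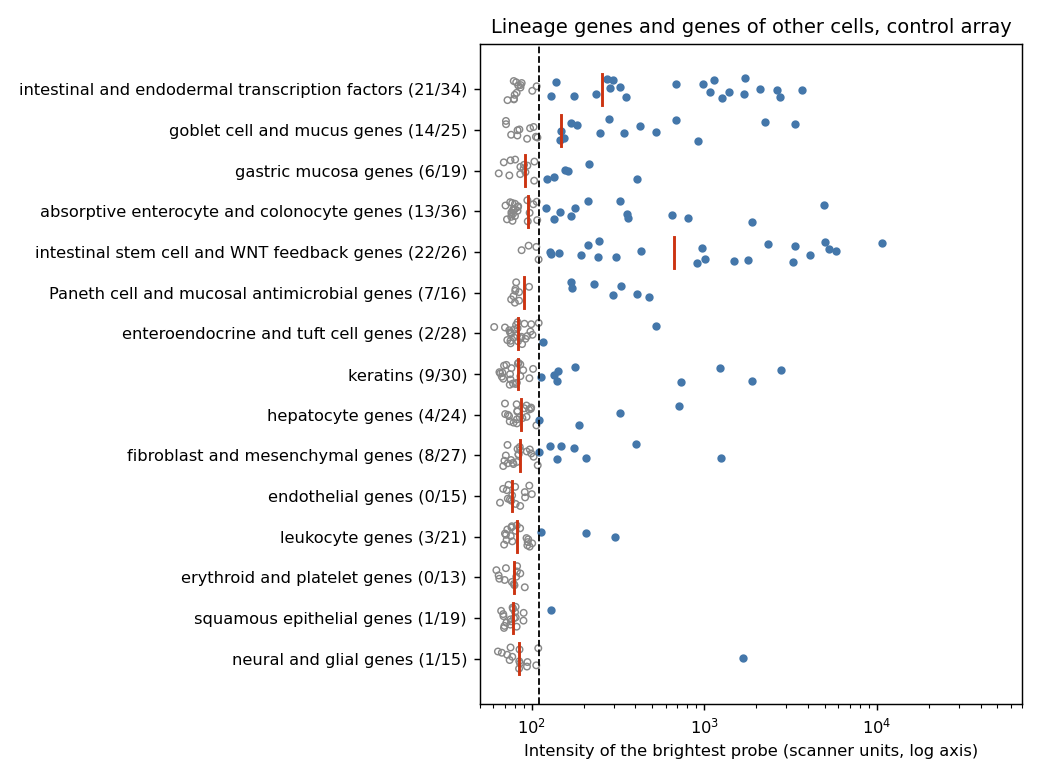
Intensity of the brightest probe (x axis, scanner units, log scale) for each gene of the lineage lists and of lists for other cells; filled points are detected, open points are not, the red bar is the list median and the dashed line the lowest detected intensity. Counts of detected over measured genes stand beside each name; the stem cell list lies mostly right of the line, and the endothelial and erythroid lists lie wholly left of it.

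Of 30 keratin and other intermediate filament genes 9 were detected. The keratins of simple epithelium KRT19 (1888.9), KRT8 (1233.1) and its partner KRT18 (177.6) passed. KRT10, a keratin of the upper layers of stratified epithelium, read 734.7. KRT80 (140.4) and KRT23 (112.7) were each detected at 1 of 2 probes. The basal and wound keratins KRT17 (134.7) and KRT6B (142.3 at 1 of 3 probes) were just above the limit, and KRT5, KRT14, KRT7, KRT13 and KRT16 were not detected. Of the intermediate filament genes of other lineages, VIM, the mesenchymal filament, read 78.0 at most and DES and GFAP were undetected, whereas NES, a filament gene of progenitor cells, read 2798.6 at its single probe.

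HOX genes encode position along the body axis, with higher numbers active further back. HOXA genes were detected in 6 of 11 cases, HOXB in 4 of 10, HOXC in 0 of 9 and HOXD in 2 of 9. The detected HOXB genes were the neighbours HOXB5 (495.7), HOXB6 (183.7), HOXB7 (567.6) and HOXB8 (397.3). In the HOXA cluster HOXA9 read 2016.5 at 1 probe and 99.4 at the other, HOXA5 768.1, HOXA10 590.0, HOXA13 500.5, HOXA6 166.5 and HOXA2 125.7 at 1 of 2 probes. HOXD13 (148.5) and HOXD12 (141.5), the last genes of their cluster, were dim, and HOXB13, a hindgut and prostate gene, was undetected.

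**Figure D3:**
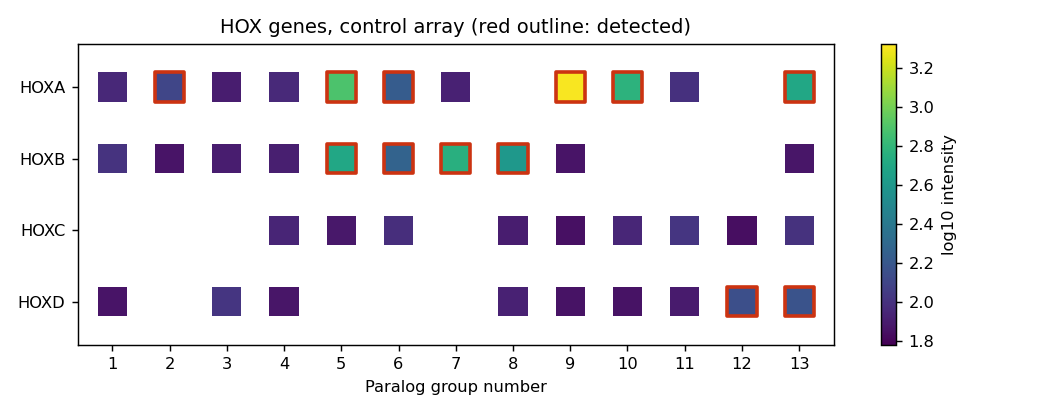
HOX genes of the 4 clusters (rows) by paralog group number (x axis), coloured by log10 intensity of the brightest probe in the control array, with a red outline where the gene was detected. A run of HOXB5 to HOXB8 is outlined, and no HOXC gene is.

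Genes of other cell types were detected in 17 of 134 cases (12.7%), against 52.9% of protein-coding genes. The count was 43 at a score above 0.95 and 11 at a threshold stricter than 0.99. Endothelial genes were detected in 0 of 15 cases, erythroid and platelet genes in 0 of 13, squamous genes in 1 of 19, leukocyte genes in 3 of 21 and neural genes in 1 of 15. The detected neural gene, MBP, read 1685.7, 137.5 and 134.6 at its 3 probes. The leukocyte markers PTPRC, CD3D and CD14 were undetected. The detected leukocyte genes were NKG7 (306.2), the macrophage marker CD68 (206.0 and 196.1 at 2 of 3 probes) and the T cell kinase LCK (114.0 at 1 of 4 probes). Although the line was selected in the liver, 20 of 24 hepatocyte genes were undetected, including ALB (99.0 with a score of 0.982), AFP, TTR and APOA2. The detected members included the urea cycle enzyme CPS1 (188.0), FGA (326.0 at 1 of 5 probes) and SERPINA1 (110.3, at the limit). The brightest of the 4 detected hepatocyte genes was another member, which read 714.5. Mesenchymal genes were detected in 8 of 27 cases. CDH11, a cadherin of mesenchymal cells, read 1259.1, the smooth muscle actin ACTA2 405.1 and TWIST1, a factor of epithelial to mesenchymal change, 205.9. The fibroblast protease FAP (176.7), the factor ZEB2 (148.2), PDGFRA (139.8), COL3A1 (127.3) and TAGLN (110.9) passed nearer the limit. FN1, VIM, CDH2, SNAI1, SNAI2, ZEB1, COL1A1, COL1A2 and SPARC were below detection.

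Adhesion genes were detected in 102 of 210 cases (48.6%), slightly below the 52.9% of protein-coding genes. The class therefore showed no excess over that background, and its individual lists lay on both sides of it. The epithelial adhesion molecule EPCAM read 19097.0 at 1 probe and 514.7 at the other. Among 24 cadherins, 4 were detected: CDH17 (5824.0), the epithelial cadherin CDH1 (4261.6), CDH11 (1259.1) and CDH3 (184.4). Their cytoplasmic partners CTNNA1 (2932.6), CTNNB1 (993.4, detected at 3 of 7 probes) and the linker VCL (2550.9) were seen. CTNND1 was detected at 1 of 5 probes (123.3) and the linker AFDN was not detected. RNA of several members of the epithelial cadherin complex was therefore detected, together with that of a mesenchymal cadherin read at a single probe.

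Desmosome genes, which anchor keratin filaments at the membrane, were detected in 11 of 16 cases. Plakoglobin JUP read 1539.9, PKP2 1090.5, desmoplakin DSP 815.3, DSC2 742.6 and DSG2 314.7, while DSG1, DSG3, DSC1, DSC3 and PKP1, which belong to stratified epithelium, were not detected. EVPL (370.3) and DSG4 (126.8), also genes of stratified epithelium, were detected. Tight junction genes were detected in 17 of 31 cases (54.8%), near the 52.9% of protein-coding genes. The claudins CLDN7 (2726.1), CLDN1 (1476.9), the pore-forming CLDN2 (919.8) and CLDN12 (520.4) and the scaffolds TJP1 (828.5) and TJP3 (565.0) were present. CLDN4 read 111.6, at the limit, and OCLN was not detected at any of 4 probes.

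Integrins bind cells to matrix as pairs of subunits, and 9 of 26 subunits were detected. The shared beta subunit ITGB1 read 4303.4, 1918.5 and 766.3 at its 3 detected probes and lay below detection at the other 3. ITGB5 read 1282.6, the laminin-binding ITGA6 804.4, ITGAV 744.9, ITGAE 732.4, ITGA3 555.2 and the collagen-binding ITGA2 303.0. ITGB4, the partner of ITGA6 in hemidesmosomes, was detected at 1 of 4 probes (133.0), and the fibronectin-binding ITGA5, the leukocyte subunit ITGB2 and ITGB6 were not detected. Basement membrane genes were detected in 12 of 24 cases. LAMA5, the main laminin alpha chain of adult epithelium, read 2962.6, LAMC1 646.5, LAMB1 637.0 and NID2 1357.2, whereas each of the 6 collagen IV genes, HSPG2 and NID1 lay below detection. Detected chains thus included an alpha, a beta and a gamma chain of laminin but no collagen IV.

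Carcinoembryonic family genes were detected in 3 of 11 cases, with CEACAM6 at 4255.6, CEACAM5, the antigen measured in serum of patients with colon cancer, at 503.9 and CEACAM1 at 362.1, 257.7 and 126.1. These genes are close paralogs, and cross-binding between their probes was not tested. The tetraspanins CD81 (8469.4), TSPAN8 (6238.6) and CD151 (4521.3), the glycoprotein CD24 (4185.5) and ALCAM (2717.1) were clear. The endothelial ligands SELE, SELP and VCAM1, and also ICAM1, MCAM and NCAM1, were not detected. Matrix proteases were largely undetected: of 13 matrix metalloproteinase genes only MMP15 (179.4) and MMP11 (174.2) passed, and PLAU and PLAT did not. The membrane proteases ADAM15 (2866.8) and ST14 (682.4) were also detected. So were the protease inhibitors SPINT2 (1961.2) and TIMP1 (1441.4) and the serpin SERPINB5 (1576.9).

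Metabolic genes were detected in 294 of 374 cases (78.6%), against 52.9% of protein-coding genes. All 24 genes of the citric acid cycle passed, with a median of 1977.9, from IDH3A (216.2) to MDH2 (9587.9). Glycolysis genes were detected in 21 of 28 cases. GAPDH read 12845.0, LDHA, which makes lactate, 11087.1, ENO1 10184.1, TPI1 7063.9 and LDHB 6959.5. The hexokinases HK1 (2067.7 at 1 of 4 probes) and HK2 (707.1) were detected, and HK3 was not. The lactate exporter SLC16A3 read 1325.8, and SLC16A1 (89.1) was below detection at its single probe. Among glucose transporters SLC2A1 read 356.5, SLC2A8 624.0 and SLC2A6 415.5. SLC2A3 (117.1), SLC2A12 (118.4), SLC2A9 and SLC2A11 lay close to the limit. The liver and gut transporters SLC2A2 and SLC2A5 were undetected, SLC2A5 near the limit (100.4).

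Genes of lipid synthesis were mostly detected, like the metabolism genes as a class (78.6%). SCD, which desaturates fatty acids, read 11295.0, the fatty acid synthase FASN 10894.5, ELOVL6 2820.7, and ACLY, which makes their precursor, 2554.1, and 16 of 20 genes of this list passed. Of 26 cholesterol genes, 24 were detected, with HMGCS1 at 11591.5, FDFT1 at 8643.6, and SQLE at 2965.3. The exporters ABCA1 and ABCG8 were undetected. In fatty acid oxidation and ketogenesis 22 of 25 genes passed. Among them ACADVL read 2779.9, HADH 2443.1 and ACADM 2198.5. CPT1A, which controls entry of fatty acids into mitochondria, read 157.0 at 1 of 3 probes, and OXCT1, which uses ketone bodies, 206.7. Detection in these lists covered synthesis and breakdown of lipids alike.

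Serine and one-carbon enzymes were detected in 19 of 21 cases, with PHGDH, the first enzyme of serine synthesis, at 8799.6, PSAT1 at 5086.8 at 1 of 2 probes, SHMT2 at 3860.3 and MTHFD2 at 2958.8. Asparagine synthetase ASNS read 3789.1 and the transaminase GOT2 3158.6. The arginine gene ASS1 read 1706.5, OTC 212.9 and the arginase ARG1 was not detected. GLUL, which makes glutamine, was undetected. Nucleotide synthesis genes passed in 22 of 24 cases, led by PAICS (4690.2), RRM1 (3223.3) and IMPDH2 (2814.4). Of the gluconeogenic enzymes PCK2, the mitochondrial form, read 1804.8, PCK1 235.3 and FBP1 146.7, and G6PC1, which releases glucose from liver cells, was undetected. In the creatine system, which buffers ATP, CKB read 510.5, the mitochondrial CKMT1A 1206.7 and CKMT1B 542.9, with the transporter SLC6A8 at 114.5 and CKM, CKMT2 and GATM undetected.

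Detoxification genes fell into a detected and an undetected part. The conjugating and reducing enzymes GSTP1 (11777.6), NQO1 (6941.6), GSTO1 (3601.2), MGST1 (3195.7) and NAT2 (2876.9) were clear. The cytochromes CYP2J2 (1334.3), CYP2S1 (924.6), CYP1B1 (440.8) and CYP3A5 (368.0) were detected, whereas CYP3A4, CYP2E1, CYP1A1, CYP1A2 and CYP7A1, mostly liver enzymes, were not. In the aldo-keto reductase and aldehyde dehydrogenase list 20 of 21 genes passed, with AKR1C3 at 2479.2 and ALDH9A1 at 4641.9. AKR1D1 read 6376.0 at 1 probe and 79.7 at the other, and AKR1C2 1904.4 and 119.7 at its detected probes of 5. Antioxidant genes included TXN (16158.1), SOD1 (10898.7), PRDX1 (7532.2) and the gut glutathione peroxidase GPX2 (6936.6), while HMOX1 was undetected. The iron store FTL read 28503.1, the transferrin receptor TFRC 9354.7 and the metallothioneins MT1A 10930.9, MT1G 10081.5, MT1E 7679.0 and MT2A 6142.2. The metallothioneins, like the AKR1C genes and like CKMT1A and CKMT1B, are closely similar in sequence, and which gene each probe registered was not tested. AKR1C1 was undetected (71.6). Of 14 drug and lipid ABC transporters 8 were detected. ABCB1 (818.2 and 337.1) and ABCC4 (415.1 and 355.5) passed at both probes, and ABCC3 read 485.9 at 1 probe and 73.1 at the other. The pumps ABCG2 and ABCC2 were not detected, ABCC2 just below the limit (105.4).

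Receptor and ligand genes were detected in 168 of 441 cases (38.1%), below the 52.9% of protein-coding genes. Of 42 receptor tyrosine kinases 15 passed. ERBB2 read 1363.9 at 1 of 3 probes, ERBB3 1203.5 and 135.6 at 2 of 3, FGFR3 673.4 at 1 of 2, MET 452.8, and EGFR 324.9 at 1 of 4. KIT, the stem cell factor receptor, was detected at both probes (528.6 and 411.4), and its ligand KITLG read 845.7. FGFR4 read 358.1, MST1R 252.4 and the WNT coreceptor RYK 1256.4. INSR (75.2) and IGF1R (72.6) were below detection at their single probes. IGF1, IGF2 and the EGFR ligand AREG were undetected too. The EGFR ligands TGFA (192.3), HBEGF (179.8), EREG (155.7), EPGN (196.4) and BTC (133.2) were dim but detected. The endothelial receptors KDR, FLT1 and TEK (100.3, near the limit) were not detected, while the angiogenic ligands VEGFA (369.3) and ANGPT1 (645.4) were. Both KIT and MET were thus detected, and a ligand was detected for KIT but not for MET, since HGF was below detection.

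EPH receptors sort cells along the crypt by repulsion. EPHB4 read 980.3, EPHB3 976.0, EPHA1 438.3 and EPHB2 241.9, and the ligands EFNA1 1353.9 and EFNB2 1140.4. Of 40 WNT receptors, ligands and inhibitors 12 were detected, with the coreceptor LRP5 at 949.4 and FZD6 at 494.3. FZD1, FZD2, FZD3, FZD4, FZD5 and FZD7 read between 121.3 (FZD3) and 199.4 (FZD7). Of the WNT ligands in the list only WNT16 passed (116.3 at 1 of 2 probes), and the secreted inhibitors SFRP1, SFRP2, WIF1 and DKK4 were undetected. The inhibitor DKK1 passed close to the limit (113.3 at 1 of 2 probes). In the BMP and TGF-beta list, TGFBR2, which is mutated in many colon cancers with mismatch repair defects, was detected at each of 3 probes, the brightest at 917.6, whereas TGFBR1 was not detected. The ligand BMP4 read 2649.0, its antagonist NOG 1488.0 and the stress cytokine GDF15 1399.9. NOTCH2 was the only NOTCH receptor detected (149.2 at 1 of 3 probes), and the ligands JAG1 (546.3) and DLL1 (393.8) were seen.

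Nuclear receptors were detected in 22 of 46 cases (47.8%), against 52.9% of protein-coding genes. Besides PPARG, RXRA read 791.4, NR4A2 732.6, NR2F2 654.6, VDR 326.0 at 1 of 2 probes and the oxysterol receptor NR1H3 364.9. The steroid receptors ESR1, ESR2, PGR (106.9, just below the limit) and NR3C1, the glucocorticoid receptor, and the bile acid receptor NR1H4 were undetected. Of 19 chemokine receptors 1 passed: CCR6 read 8018.2 at 1 probe and 107.9 and 81.9 at the others. CXCR4, CCR7 and ACKR3, which have been studied in metastasis, were undetected, ACKR3 just below the limit (105.2). Chemokines were detected in 6 of 31 cases, with CXCL8 at 1069.5 and 501.6, CXCL16 at 1034.6, CXCL2 at 237.8 and CCL20 at 119.1. Among 51 other G protein-coupled receptors 11 passed. F2RL1, the receptor cleaved by trypsin, read 1235.3 and 416.9, the adhesion receptor ADGRG1 3728.7 and 3481.8, ADORA2B 879.1, LPAR5 499.5 and the prostaglandin receptor PTGER4 386.2. F2R, the thrombin receptor, read 23033.0 at 1 probe and 86.9 at the other.

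Receptors for immune signals were partly present. The interferon gamma receptor chains IFNGR2 (1531.1) and IFNGR1 (523.4), the type I chains IFNAR1 (343.1) and IFNAR2 (169.9), IL10RB (751.8) and IL13RA1 (571.0) were detected, and IL6R, IL6ST, IL1R1, LIFR and OSMR were not. The death receptors TNFRSF10B (1186.9), TNFRSF10A (188.6) and FAS (135.9 at 1 of 2 probes) and the related TNFRSF1A (543.0), LTBR (1052.5), TNFRSF21 (1017.2) and TNFRSF14 (1635.3) passed, and the decoy receptors TNFRSF10C, TNFRSF10D and TNFRSF11B did not. Pattern receptors were dim, none above the 263.2 of the adaptor MYD88, and TLR2 and TLR4 were undetected. For antigen presentation, B2M read 3584.0, TAP1 1023.4 and HLA-C 120.0, and HLA-B (80.0) was below detection. HLA genes vary between people, and the match of these probes to the alleles of the line was not tested. The class II genes HLA-DRA, HLA-DPA1 and HLA-DQA1, their activator CIITA and the checkpoint ligands CD274, CD80 and CD86 were undetected.

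**Figure D4:**
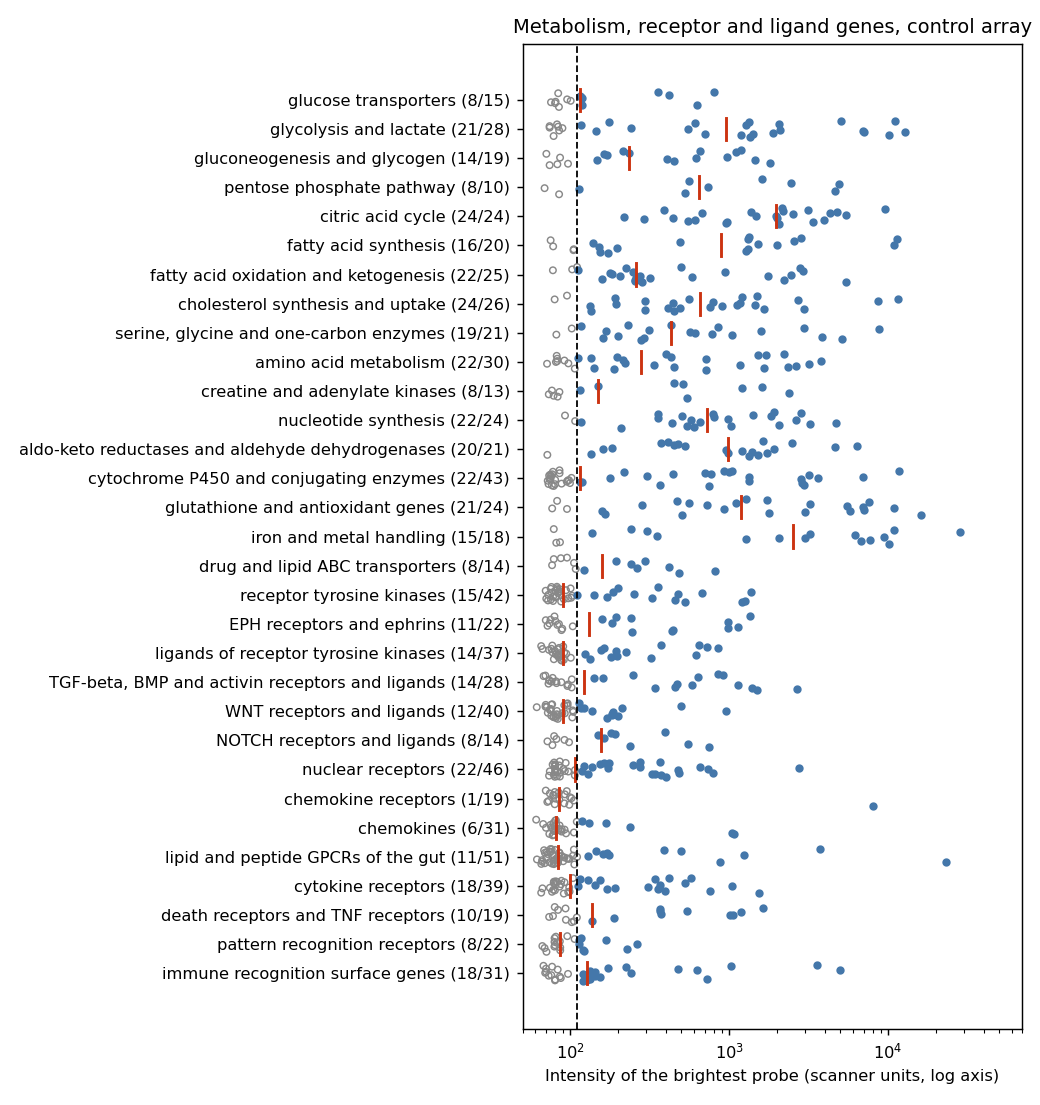
Intensity of the brightest probe (x axis, scanner units, log scale) for each gene of the metabolism lists (upper rows) and of the receptor and ligand lists (lower rows) in the control array; filled points are detected, open points are not, the red bar is the list median and the dashed line the lowest detected intensity. All 24 citric acid cycle genes lie right of the line, and 1 of 19 chemokine receptors does.

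Genes of cell division were detected in 30 of 35 cases, with MCM3 at 8172.9, PCNA at 5327.9, CCNB2 at 2186.2 and TOP2A at 1245.8. MKI67 (102.1) was just below the limit at its single probe, and the inhibitor CDKN2A was undetected at 3 probes, while CDKN1A read 1746.1 at 1 of 2 probes. All 8 mismatch repair genes passed, from MLH3 (121.8) to MSH3 (3423.6), with MSH6 at 1095.1 and a list median of 309.15. Of these genes 3 had a further probe below detection, and repair function was not tested. Of 23 cancer-testis antigens 5 were detected, with CTAG2 at 1766.9 and 137.5 and MAGEA3 at 472.3 at 1 of 2 probes. Among 15 oncofetal genes the imprinted transcript H19 read 8702.2, HMGA1 2630.3 at 1 of 4 probes, IGF2BP2 978.8 and IGF2BP3 843.6. IGF2, the imprinted neighbour of H19, was undetected at 3 probes. AFP, LIN28A, LIN28B, HMGA2 and TERT were also undetected.

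Of the 40 genes with the highest intensity, leaving out provisional symbols, 23 encode cytosolic ribosomal proteins, and EEF1A1, which brings transfer RNA to the ribosome, read 63385.8. In the ribosomal protein list 75 of 76 genes were detected with a median of 14797.5. The exception was RPL10 (83.7, undetected at both probes), a component of every ribosome, so an undetected value limits only what its probes registered. TPT1 (49470.6), the actin-sequestering TMSB10 (34850.6), ACTG1 (32896.1), FTL (28503.1), TUBA1B (21188.7) and the chaperone HSPD1 (20996.7) are general genes of growing cells. Of these 40 genes 9 had a further probe below detection. LAIR1, an inhibitory receptor of leukocytes, read 34266.9 at 1 probe and 81.4 at the other, CLEC2D 22773.6 against 81.0 to 95.3 at 3 others, and CLUAP1 36997.5 against 148.6 to 329.4 at 4 others. With F2R, CCR6 and AKR1D1 these genes rest on 1 very bright probe that their remaining probes do not share.

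Probes of a gene often differed. Among 4240 genes with exactly 2 probes, both were detected for 1264, neither for 1880 and 1 for 1096, so the calls matched in 74.2%. Across these genes, which are not replicates, log2 intensities of the first and second listed probe had r = 0.536. The share of genes detected was 35.9% with 1 probe, 55.7% with 2, 61.5% with 3 and 60.8% with 4 or more. Of the detected genes 707 lay within 1.1 times the lowest detected intensity, and 981 undetected ones lay as close below it.

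Promoter CpG content, which the detection rule did not use, was set beside detection for protein-coding genes. A promoter sequence was matched for 14118 of 17000 genes on the chromosomes that were covered (83.0%), for 85.8% of detected and 79.9% of undetected genes. CpG observed over expected was computed over the 250 bases before the start, at 1 annotated start a gene. In the decile of genes with the lowest ratio 17.5% were detected (95% Wilson interval 15.6 to 19.6, which covers counting error only). The share was 52.9% in the fourth decile and 75.8% (73.5 to 78.0) in the highest. Across all 14118 genes the Spearman correlation of the ratio with intensity was 0.400, and across the 7722 detected genes 0.131. TATAAA was held by 9.65% of promoters of undetected genes. In the quintiles of detected genes, from the lowest to the highest intensity, the share was 4.60%, 2.91%, 3.82%, 2.40% and 4.72%, with no order among them. Genes with a CpG-poor promoter were thus detected less often, and GPA33, in the lowest decile, and CEACAM6, in the second, are detected examples from that group.

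**Figure D5:**
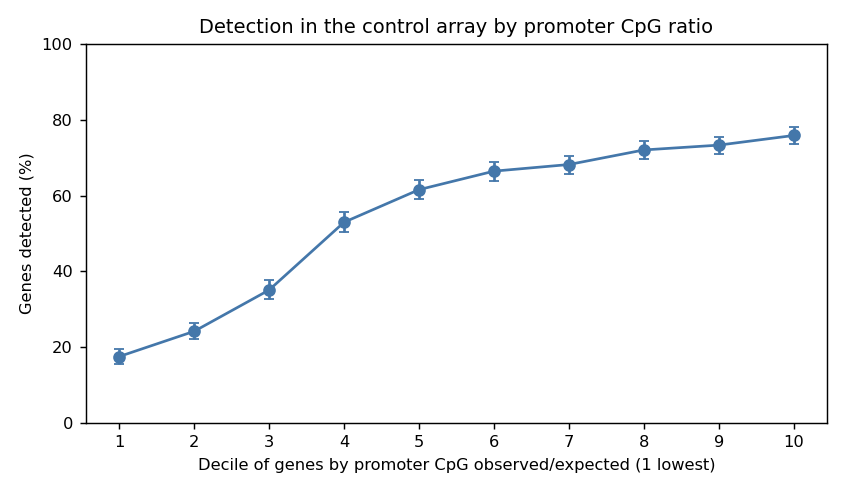
Percentage of protein-coding genes detected in the control array (y axis) by decile of promoter CpG observed over expected (x axis, 1 lowest), with 95% Wilson intervals as bars that cover counting error only. The share goes from 17.5% in the lowest to 75.8% in the highest decile.

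By chromosome, 51.8% of 18447 placed genes on the autosomes and X were detected, between 46.1% on chromosome 11 and 58.2% on chromosome 16 for autosomes. The X chromosome gave 41.6% of 757 genes (95% Wilson interval 38.2 to 45.2), below every autosome as a point value, and its interval overlaps those of chromosomes 11 (43.3 to 48.9), 20 (45.1 to 53.6) and 21 (42.0 to 54.9).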

How the data were processed

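Total RNA of control LvM3b cells came from a miRVANA extraction and was hybridised as biotin-labelled cRNA made with MessageAmp chemistry, per the labels' protocols. The authors deposited non-normalized intensity values with a detection score beside each, a fraction between 0 and 1 per the file headers. The scanner software and how it handled background were not given in the sources at hand. In the authors' deposited normalized table and in the series matrix the control intensity equals the non-normalized one at all 48803 probes (tolerance 1e-09), so 1 set of values was used. Intensity and score rose together (Spearman 0.994 across probes), so a high score was read as detected.

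Probes given only as UniGene clusters, 12646, were left out of gene counts. Of 25200 symbols, 15712 matched a current RefSeq symbol, 3021 an older symbol of 1 gene and 6467 were kept as listed, which gave 24989 genes. The 66 gene lists hold 1528 genes, of which 1507 were analysed. Members and lists were chosen with earlier results of these data known. Named genes are the 40 of highest intensity, without provisional symbols, and members of the lists. The background, estimated with limma 3.58.1 in R 4.3.3 from the detection scores, had a mean of 76.2 and an SD of 9.10. Ranking within 1 array needs no normalization. With 1 array no test was made, no p-value was computed, and the number of arrays limits the precision. Counting was tested on simulated data. Other score thresholds, other probe rules, listed symbols and a background-corrected threshold were tried. Python 3.11.15 and scipy 1.17.1 were used for counts and intervals. Some list members count in the totals but are not reported by name here.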

Additional observations from a re-analysis of the deposited data

Results flagged for a closer look

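Outside the gene counts, 467 of the 12646 probes that the file gives only as a UniGene cluster were detected (3.69%). They were singled out because they carry signal in rows that the gene counts do not use. The brightest read 16926.5 and the next 7915.7.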

How the results depend on the processing

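No paired analysis was possible because each group has 1 array, and for the same reason leaving out a replicate could not be run. The count of detected genes, 10524, ranged from 7976 with every probe required to 13305 at a score above 0.95. Counts of lineage, adhesion, metabolism and cell state genes stayed within 1.5 times under each alternative. Genes of other cell types, 17 of 134, became 43 at a score above 0.95, 35 at a corrected intensity above 2 SD of the background, 11 at the stricter score threshold and 11 with every probe required. Receptor and ligand genes, 168 of 441, became 110 with every probe required. The share detected in the highest CpG decile, 75.8%, became 83.1% at a score above 0.95 and 72.7% over genes with exactly 1 probe. That in the lowest decile, 17.5%, became 30.7% and 13.8% in the same settings and 14.6% with the mean of a gene's probes. Of 66 lists, 23 moved by over 1.5 times with every probe required, 15 at 0.95 and 9 at the stricter threshold. Of 1522 named genes, 205 lost detection with every probe required and 94 at the stricter threshold, and 163 gained it at 0.95. The causes were not tested. Dim genes within 1.1 times the lowest detected intensity of 110.3 are those that signal over background limits most.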
